A study of Aspergillus nidulans with 4 samples.

Results

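The comparison sets the library of Aspergillus nidulans grown on fructose with urea against the library grown on glucose with ammonium tartrate. The media differ in both the carbon and the nitrogen source. The genes were chosen by having a sense-strand read count in both libraries, which held for 7116 of the 7752 genes with a sense count in any library. All 4 media used here were inoculated with the biA1 strain, a biotin-requiring laboratory strain that serves as the wild type, and mycelium grew in minimal medium for 9 to 12 h at 37 °C. The first medium held 0.1% fructose and urea, sources that the submitters call non-repressing, and the second held 1% glucose and 10 mM ammonium tartrate, which they call repressing. The remaining 2 media changed a single source, to 1% glucose with urea or to 0.1% fructose with 10 mM ammonium tartrate. Urea is given as 10 mM in one label and as 5 mM in another, and which applied was not resolved. Each library was made from RNA of 3 cultures combined, so no medium has a replicate and no spread between cultures was measured. Tartrate came only with ammonium, and the amount of sugar changed with its kind, so neither pair of changes can be told apart.

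In filamentous fungi a preferred carbon source such as glucose shuts down genes for other carbon sources, largely through the zinc finger repressor CreA. Ammonium and glutamine do the same for other nitrogen sources, largely by keeping the GATA factor AreA inactive. Many genes also need an inducer from their own pathway, such as proline or nitrate, besides release from repression. Some genes, such as those for amide and proline use, answer to both controls.

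Sense counts over the listed genes summed to 2606076 in glucose with ammonium, 1698692 in glucose with urea, 547041 in fructose with ammonium and 812637 in fructose with urea. After TMM scaling, 1 count stood for 0.384, 0.610, 1.82 and 1.12 scaled CPM, a count scaled to library depth, in the same order. Wherever 4 counts are given for a gene below, they follow this order of media. A log2 ratio is fructose with urea over glucose with ammonium unless said otherwise, with a prior count of 1 added, and the range in parentheses is its exact 95% Clopper-Pearson interval without that prior count. These intervals cover counting error only and no spread between cultures. They can be too narrow even for counting error, since amplified reads are not independent molecules. Where one library had no read of a gene, the fold is a lower bound that puts 3 counts in its place. With 1 library per medium no test was possible, and "higher" and "lower" describe these libraries. Antisense reads made up 24.6% of the listed counts in fructose with urea and 28.9% in glucose with ammonium.

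Of the 7116 genes, 6671 had a mean level of at least 3 on the log2 scale of scaled CPM. Among these 6671 genes, 919 (13.8%) were higher in fructose with urea by 4-fold or more and 1013 (15.2%) lower by as much. These shares are the background for every list count below. The median log2 ratio over the 6671 genes was -0.03, and 2945 genes (44.1%) lay within 2-fold. The whole counting interval lay past 4-fold for 679 of the higher and 604 of the lower genes. Scaling by total listed counts shifts the median of all genes by 0.14, to 0.11, and every ratio here moves up with it. In bulk RNA fewer cells of a kind and less RNA per cell cannot be told apart.

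**Figure D1:**
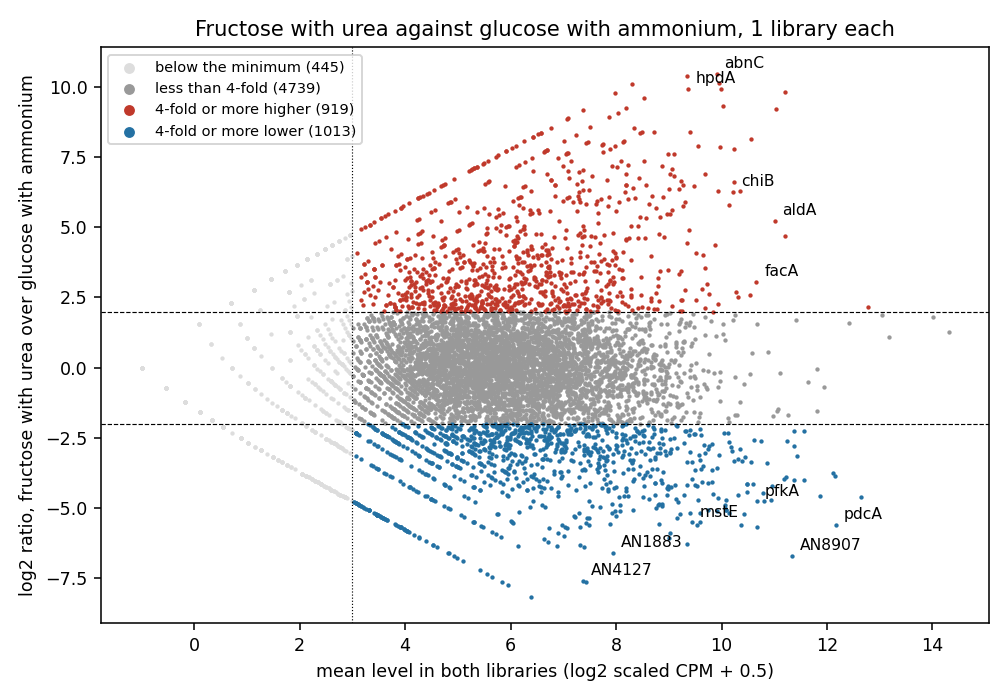
Log2 ratio of each gene, fructose with urea over glucose with ammonium, against its mean level in both libraries (log2 scaled CPM). Red and blue points are the 919 genes at least 4-fold higher and the 1013 at least 4-fold lower, dashed lines mark 4-fold, and the dotted line marks the level minimum.

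The hexose transporter genes changed places between the media. The low-affinity glucose transporter gene mstE (AN5860) had 3549, 2467, 15 and 26 counts, a log2 ratio of -5.52 (-6.16 to -4.99). It was high in both glucose libraries and low in both fructose libraries. The putative high-affinity hexose transporter gene hxtA (AN6923) had 33, 1, 29 and 1086 counts, 6.52 (6.09 to 7.13), with a modest level in fructose with ammonium and by far the highest in fructose with urea. The putative sugar transporter gene mstA (AN8737) had 1, 0, 34 and 270 counts, 8.31 (7.13 to 14.93). In the wider list of major facilitator and sugar transporters, 9 of 17 members passed 4-fold upwards and 2 downwards, around a median of 2.02. Among them were the xylose-induced sugar transporter genes AN8400, with 80 counts against 1 and 6.56 (5.35 to 13.19), and AN4590, with 243 counts against 9 and 6.08 (5.35 to 7.45).

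Transcripts of glycolysis and alcoholic fermentation were lower throughout. Of 12 genes, 9 were at least 4-fold lower and 0 higher, against 15.2% and 13.8% of all genes, and the median was -2.92. Together these genes held 2.31% (2.29% to 2.33%) of the listed sense counts in glucose with ammonium and 0.221% (0.210% to 0.231%) in fructose with urea. The pyruvate decarboxylase gene pdcA (AN4888), which opens the branch to ethanol, had 23558, 14701, 2035 and 166 counts and a log2 ratio of -5.60 (-5.83 to -5.38). The 6-phosphofructokinase gene pfkA (AN3223), whose enzyme commits hexose phosphate to glycolysis, had 8192, 3946, 1459 and 102 counts, -4.77 (-5.08 to -4.50). Both genes were far lower in fructose with urea than in any of the other 3 libraries. The enolase gene acuN stood at -3.26 (-3.47 to -3.07), the phosphoglycerate kinase gene pgkA at -3.20 (-3.39 to -3.01) and the hexokinase gene hxkA at -2.98 (-3.36 to -2.65). The genes that stayed within 4-fold were the glucokinase gene glkA at -1.94, the glucose-6-phosphate isomerase gene swoM at -1.77 and the aldolase gene fbaA at -1.55, all below 0.

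Genes for making sugar from small carbon compounds went the other way. Of 7 genes of gluconeogenesis and the glyoxylate cycle, 4 were at least 4-fold higher, and the 1 lower gene was acuN, whose enolase also serves glycolysis. The median was 2.69. The malate synthase gene acuE (AN6653) had 60, 70, 73 and 520 counts, 4.63 (4.28 to 5.07). The phosphoenolpyruvate carboxykinase gene acuF (AN1918) had 208, 129, 408 and 1229 counts, 4.10 (3.90 to 4.33). For fructose-1,6-bisphosphatase, acuG had a ratio of 3.40 (3.06 to 3.82), and for isocitrate lyase, acuD had 2.69 (2.45 to 2.96). In scaled CPM acuE, acuF, acuG and acuD were all above both glucose libraries in fructose with ammonium already, and highest in fructose with urea.

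In the list for ethanol and acetate use, 7 of 10 genes passed 4-fold upwards and 1 downwards, around a median of 2.67. The list includes phkA, taken by symbol, which the deposited description calls a phosphotransfer protein and which stood at -0.08, a sign that turns with total-count scaling. The aldehyde dehydrogenase gene aldA (AN0554) had 278, 182, 326 and 3582 counts, 5.23 (5.06 to 5.42). The alcohol dehydrogenase II gene alcB (AN3741) had 2, 4, 9 and 315 counts, 8.05 (6.98 to 11.90). The gene of the ethanol regulon activator, alcR (AN8978), had 72, 47, 25 and 347 counts, 3.79 (3.45 to 4.20), and its target alcA had 113, 29, 32 and 214 counts, 2.45 (2.13 to 2.81). The alcohol dehydrogenase gene alcC (AN2286) was the exception, with 3128, 2042, 1061 and 45 counts and -4.56 (-5.03 to -4.15). The acetate side was higher too, with 3.04 (2.93 to 3.15) for the acetyl-CoA synthetase gene facA and 2.42 (2.17 to 2.70) for the gene of its activator FacB. The 7 carbon regulator genes all stayed within 4-fold, among them creA with 124, 79, 84 and 159 counts, 1.89 (1.56 to 2.26). Scaled by total listed counts, creA would pass 4-fold, at 2.03.

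Genes of the tricarboxylic acid cycle, a list added after the values were seen, were mixed, with 5 of 17 at least 4-fold lower, 1 higher and a median of -0.84. The list also takes in genes for the supply of cytosolic acetyl-CoA. The ATP citrate lyase genes aclB and aclA, which make that acetyl-CoA from citrate, had 128 counts against 9872 and 8 counts against 488, with ratios of -4.72 (-4.98 to -4.47) and -4.30 (-5.60 to -3.39). The citrate synthase gene citA stood at -3.05 (-3.29 to -2.82), the aconitase gene acoA at 1.54 (1.39 to 1.70) and the NADP-dependent isocitrate dehydrogenase gene idpA at 2.38 (1.91 to 2.94). Of 5 genes matched by propionate or methylcitrate, also listed afterwards, 4 were at least 4-fold higher. The methylcitrate synthase gene mcsA, which detoxifies propionyl-CoA, had 96 counts against 0, at least 93.5-fold higher.

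Nitrogen genes did not move as one group. Of 5 nitrogen regulator genes, meaB, for a bZIP factor involved in nitrogen repression, was past 4-fold, with 30, 56, 19 and 131 counts and 3.61 (3.09 to 4.30). For the activator gene areA the counts were 162, 148, 31 and 109, 0.97 (0.61 to 1.34), and for its co-activator gene tamA the ratio was 1.44 (0.66 to 2.33). The gene of the AreA inhibitor NmrA stood at -0.16 (-0.79 to 0.42) and areB, for a second GATA factor, at 0.04 (-0.80 to 0.82).

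Ammonium uptake and assimilation was lower, with 4 of 5 genes past 4-fold, 0 higher and a median of -2.28. The NADP-dependent glutamate dehydrogenase gene gdhA (AN4376), the main route from ammonium to glutamate, had 4356, 2958, 157 and 117 counts, -3.67 (-3.95 to -3.41). The ammonium transporter gene meaA (AN7463) had 458, 690, 5 and 8 counts, -4.21 (-5.51 to -3.30). Both were low in the 2 fructose libraries. The glutamate synthase gene gltA stood at -2.28 (-2.50 to -2.07) and the glutamine synthetase gene glnA at -2.17 (-2.37 to -1.99). A further ammonium transporter gene, mepA, and the urea transporter gene ureA lay below the level minimum, with 5 counts each in fructose with urea against 0 and 1 in glucose with ammonium. Both had over 100 counts in glucose with urea, namely 122 and 151. Of genes known to be under nitrogen repression, amdS and prnD described next were thus higher in the medium called non-repressing, whereas meaA, niiA and niaD were lower.

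Genes that release nitrogen from organic compounds were partly higher, and none of the amide, proline and purine use lists was past 4-fold lower. The acetamidase gene amdS (AN8777) had 61, 44, 20 and 498 counts, 4.54 (4.19 to 4.99), and the amidase gene gmdA had 31, 28, 12 and 110 counts, 3.31 (2.79 to 4.0). Their list held 2 of 4 genes past 4-fold higher, and the proline list also 2 of 4. In the proline cluster, prnD for proline oxidase had 2, 13, 100 and 240 counts, 7.65 (6.59 to 11.51), and prnC for the next enzyme had 9, 12, 34 and 276 counts, 6.27 (5.54 to 7.63). The proline permease gene prnB stood at -0.38 (-0.97 to 0.16) and the cluster's activator gene prnA at 0.32 (-0.31 to 0.93). Against 13.8% higher and 15.2% lower of all genes, 2 of 8 genes for purine use were past 4-fold higher and 0 lower. These were the xanthine dehydrogenase gene hxA, with 495, 317, 288 and 1336 counts and 2.98 (2.83 to 3.13), and hxB, whose product activates that enzyme, with 3.42 (2.98 to 3.98). The putative allantoinase gene AN4603 of a list added afterwards had 14, 15, 40 and 303 counts, 5.84 (5.21 to 6.87). In the list matched by GABA, added afterwards, the 4-aminobutyrate transaminase gene gatA had 21, 22, 11 and 142 counts, 4.21 (3.64 to 5.04).

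Nitrate genes were mostly lower. Nitrate, their inducer, is not named for either medium. Of 5 genes, 3 were past 4-fold lower and 1 higher. The nitrite reductase gene niiA (AN1007) had 2092, 1489, 149 and 41 counts, -4.11 (-4.61 to -3.68), and its neighbour niaD, for nitrate reductase, had 103, 98, 5 and 1 counts, -4.57 (-10.46 to -2.63). The flavohaemoglobin gene fhbA stood at -3.45 (-4.42 to -2.71), and its paralogue fhbB, the higher member, had 15 counts against 4, 3.05 (1.80 to 5.50).

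Genes of arginine breakdown were higher and several of arginine synthesis lower. The arginase gene agaA (AN2901), which splits arginine into ornithine and urea, had 74, 91, 49 and 639 counts, 4.63 (4.31 to 5.03). The ornithine transaminase gene otaA (AN1810), the next step, had 243, 140, 73 and 1342 counts, 4.0 (3.81 to 4.22). The argininosuccinate synthase gene AN1883 had 1274, 960, 145 and 4 counts, -6.60 (-8.65 to -5.41), the argininosuccinate lyase gene AN2914 1586, 919, 139 and 34, -3.98 (-4.53 to -3.51), and the putative N-acetyltransferase gene AN7722 3784, 2782, 215 and 26, -5.61 (-6.25 to -5.08). In the list matched by arginine metabolism, added after the values were seen, 6 of 14 genes were past 4-fold lower and the 2 higher ones were agaA and otaA. The urease gene ureB stood at 1.99 (1.48 to 2.56), just inside 4-fold and at 2.12 with total-count scaling, and ureD, for a nickel-binding protein needed for urea use, at -2.28 (-2.59 to -1.99).

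Breakdown of phenylalanine and tyrosine was among the highest groups. All 4 measured genes of the list were past 4-fold, with a median of 8.36, or 7.85 with the gene at 0 set to its bound. The 4-hydroxyphenylpyruvate dioxygenase gene hpdA (AN1899) had 2, 7, 111 and 1173 counts, 9.94 (8.89 to 13.79). The homogentisate dioxygenase gene hmgA (AN1897) had 5, 0, 152 and 747 counts, 8.4 (7.54 to 10.40). The fumarylacetoacetate hydrolase gene fahA (AN1896), which catalyses the last step, had 10, 4, 6 and 402 counts, 6.68 (5.98 to 7.95), and maiA (AN1895) had 163 counts against 0, a lower bound of 159-fold. All 4 genes were at 10 counts or fewer in both glucose libraries. With AN1898, which had 184 counts against 1, they form 5 neighbouring genes in the RefSeq gene order. A second run of neighbours, AN10588, AN4692, AN4691 and mccA, was also higher as a whole, at log2 ratios from 6.03 to 8.54. mccA and the nearby mccB encode the 3-methylcrotonyl-CoA carboxylase subunits of leucine breakdown, and mccB had 1, 6, 13 and 175 counts, 7.69 (6.50 to 14.31). Over the genome 20 runs of at least 3 neighbouring genes were higher and 14 lower, counted with no background. The putative kynureninase gene AN1857, which the deposited descriptions place in aromatic amino acid metabolism, had 55, 34, 9 and 796 counts, 5.37 (5.01 to 5.82).

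Amino acid synthesis by description held 13 of 41 genes past 4-fold lower and 7 higher, with a median of -0.82. The list takes in hpdA and AN1857 through their descriptions, although hpdA acts in breakdown. The lowest member was aroG, for the entry step of the aromatic pathway, with 325, 175, 28 and 2 counts and -5.48 (-8.85 to -3.93). The amino acid transporter list was split 4 higher and 4 lower of 22, against 13.8% and 15.2% of all genes. Its extremes were AN1659, with 420 counts against 4 and 7.81 (6.89 to 10.14), and AN3347, with 3 counts against 860 and -6.39 (-8.90 to -5.06). Purine metabolism by description, added afterwards, was lower for 8 of 13 genes. The adenylosuccinate lyase gene AN6209 had 542, 336, 51 and 3 counts, -5.73 (-8.23 to -4.39), and the adenylosuccinate synthase gene adB 506, 210, 55 and 5, -4.98 (-6.74 to -3.88).

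**Figure D2:**
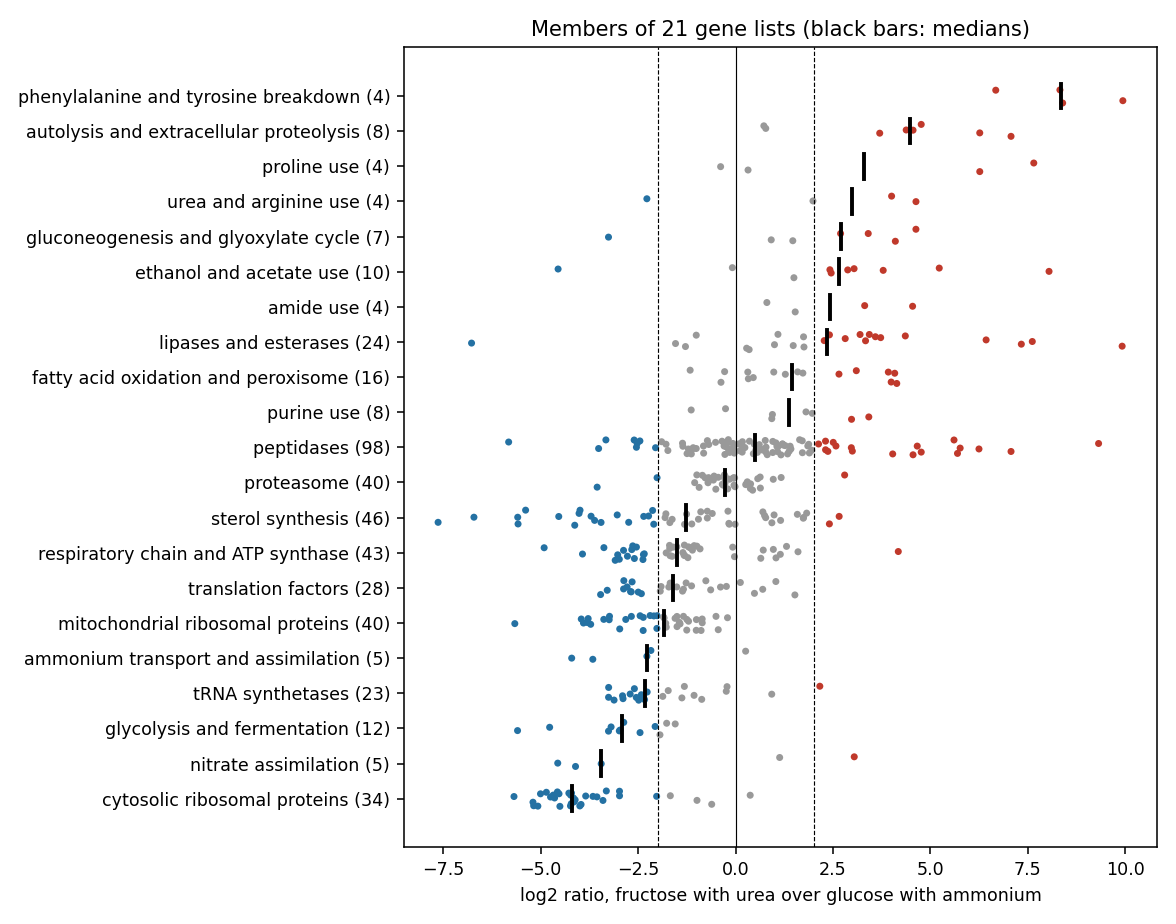
Log2 ratio, fructose with urea over glucose with ammonium, of each member past the level minimum in 21 gene lists, with black bars at the medians, dashed lines at 4-fold and the number of genes in parentheses. Medians run from -4.19 for cytosolic ribosomal proteins to 8.36 for phenylalanine and tyrosine breakdown, and red and blue points are genes past 4-fold.

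Genes for making protein were lower as a group. Of 34 genes in the cytosolic ribosomal protein list, 30 were past 4-fold lower and 0 higher, and the median was -4.19. The list held 4.71%, 4.36%, 1.35% and 0.30% of the listed sense counts in the 4 libraries, so it was low in both fructose libraries and lowest with urea. The member AN4594, for a small-subunit protein by its orthologues, had 8365, 4695, 391 and 55 counts, -5.69 (-6.11 to -5.32). The 4 members within 4-fold were AN8225 at -1.68, AN4560 at -0.99, AN0817 at -0.61 and nsa2, a ribosome assembly gene in yeast, at 0.37. Outside the list, AN5222, whose orthologues are ribosomal constituents, was among the 15 lowest genes with 6726, 4796, 266 and 46 counts, -5.63 (-6.10 to -5.23). For the mitochondrial ribosome 19 of 40 genes were past 4-fold lower and 0 higher. For ribosome biogenesis the counts were 51 and 0 of 134, of which 5 genes are also in the cytosolic list.

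The same held to a lesser extent for the steps around the ribosome. Of 23 genes in the tRNA synthetase list, 13 were past 4-fold lower and 1 higher, with a median of -2.34. The isoleucyl-tRNA synthetase gene AN0705 had 2002, 932, 206 and 71 counts, -3.26 (-3.63 to -2.93). Translation factors had 10 of 28 lower and 0 higher, with a median of -1.59. The lowest was AN10182, for subunit f of initiation factor 3, with 1048, 628, 59 and 32 counts and -3.47 (-4.04 to -2.98). Chaperones had 13 of 47 lower and 0 higher, with a median of -1.43. Unlike the ribosomal list, they were not low in both fructose libraries. Their share of listed sense counts was 3.02%, 2.54%, 4.21% and 1.22% in the 4 libraries. In fructose with ammonium over glucose with ammonium, 5 of them were past 4-fold higher and 0 lower. By comparison the proteasome list, with 2 lower and 1 higher of 40, had a median of -0.27, and both shares lay below those of all genes.

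Respiration was partly lower. Of 43 genes for the respiratory chain and ATP synthase, 15 were past 4-fold lower and 1 higher, with a median of -1.51. The ATP synthase subunit g gene atp20 had 2247, 1250, 221 and 25 counts, -4.91 (-5.57 to -4.38). Among 9 mitochondrially encoded subunits, listed after the values were seen, 6 were past 4-fold lower. The NADH dehydrogenase subunit gene ndhD (AN20008) had 6349, 8641, 1400 and 217 counts, -3.32 (-3.53 to -3.13), and oxiC, for subunit III of cytochrome c oxidase, 7137, 9889, 918 and 234, -3.38 (-3.58 to -3.20). Both were higher in glucose with urea than in any other library. atp9 differed, with 833, 783, 2677 and 866 counts and 1.60 (1.46 to 1.74). It resembles ATP synthase subunit 9, but per its description is not the functional gene.

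Many genes of sterol and fatty acid synthesis were lower, and genes of fatty acid breakdown were partly higher. Of 46 sterol genes, 18 were past 4-fold lower and 2 higher, with a median of -1.28. The putative C-4 sterol methyl oxidase gene AN8907 had 13372, 11080, 2444 and 43 counts, -6.72 (-7.20 to -6.30). The putative sterol isomerase gene AN7211 had 295, 336, 69 and 0 counts, at least 33.6-fold lower, and the bifunctional enzyme gene AN8012 had 1199, 556, 97 and 8, -5.59 (-6.90 to -4.70). Each of these genes was far lower in fructose with urea than in any of the other 3 libraries. Of 12 genes for fatty acid synthesis and desaturation, a list added afterwards, 6 were past 4-fold lower and 1 higher. The delta-9 desaturase gene sdeB (AN4135), which makes oleic acid, had 3354, 2083, 441 and 14 counts, -6.31 (-7.23 to -5.61), and the fatty acid synthase genes fasA and fasB stood at -2.89 (-3.07 to -2.72) and -2.61 (-2.75 to -2.47).

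In the lipase and esterase list, 13 of 24 genes were past 4-fold higher and 1 lower, around a median of 2.34. The list does not measure lipid breakdown alone, since it takes in plant cell wall esterases such as AN1772 and the pectinesterase gene pmeA. The putative triacylglycerol lipase gene AN8046 had 4, 2, 39 and 1822 counts, 9.92 (9.02 to 12.26). The feruloyl esterase gene AN1772, which acts on plant cell wall phenolics, had 13, 8, 15 and 972 counts, 7.62 (6.99 to 8.69). In fatty acid oxidation and peroxisome assembly 6 of 16 genes were past 4-fold higher and 0 lower. They were led by the peroxisomal oxidation gene foxA at 4.14 (3.63 to 4.84) and the acyl-CoA dehydrogenase gene acdA at 4.08 (3.75 to 4.49). The regulator gene farB, needed for growth on short-chain fatty acids, had 123, 77, 151 and 678 counts, 3.99 (3.73 to 4.30). The list matched by acyl-CoA, added afterwards, held 16 higher and 2 lower of 27 genes.

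Genes of the iron system lay on both sides. Of 9 genes, 2 were past 4-fold higher and 3 lower, against 13.8% and 15.2% of all genes, around a median of 0.55. A wider list matched by siderophore, added afterwards, had 1 higher and 3 lower of 17 and a median of -0.41. The ornithine monooxygenase gene sidA (AN5823), for the first step of siderophore synthesis, had 1985, 2814, 430 and 26 counts, -4.68 (-5.32 to -4.15). The siderophore transporter gene mirA had 177, 937, 110 and 7 counts, -3.02 (-4.45 to -2.04), whereas the transporter gene mirB had 430, 4979, 2066 and 633 counts, 2.10 (1.93 to 2.29). ngn26, an orthologue of the siderophore gene sidG of A. fumigatus, had 7, 255, 306 and 268 counts, 6.53 (5.74 to 8.13). The regulators differed little, with 0.51 (-0.79 to 1.78) for hapX, which acts under low iron, and 0.55 (0.11 to 1.00) for its counterpart sreA. Haem synthesis by description, listed afterwards, had 3 of 7 genes lower. Its lowest member was the coproporphyrinogen oxidase gene AN5130, with 5732, 2885, 1203 and 53 counts and -5.20 (-5.63 to -4.82).

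**Figure D3:**
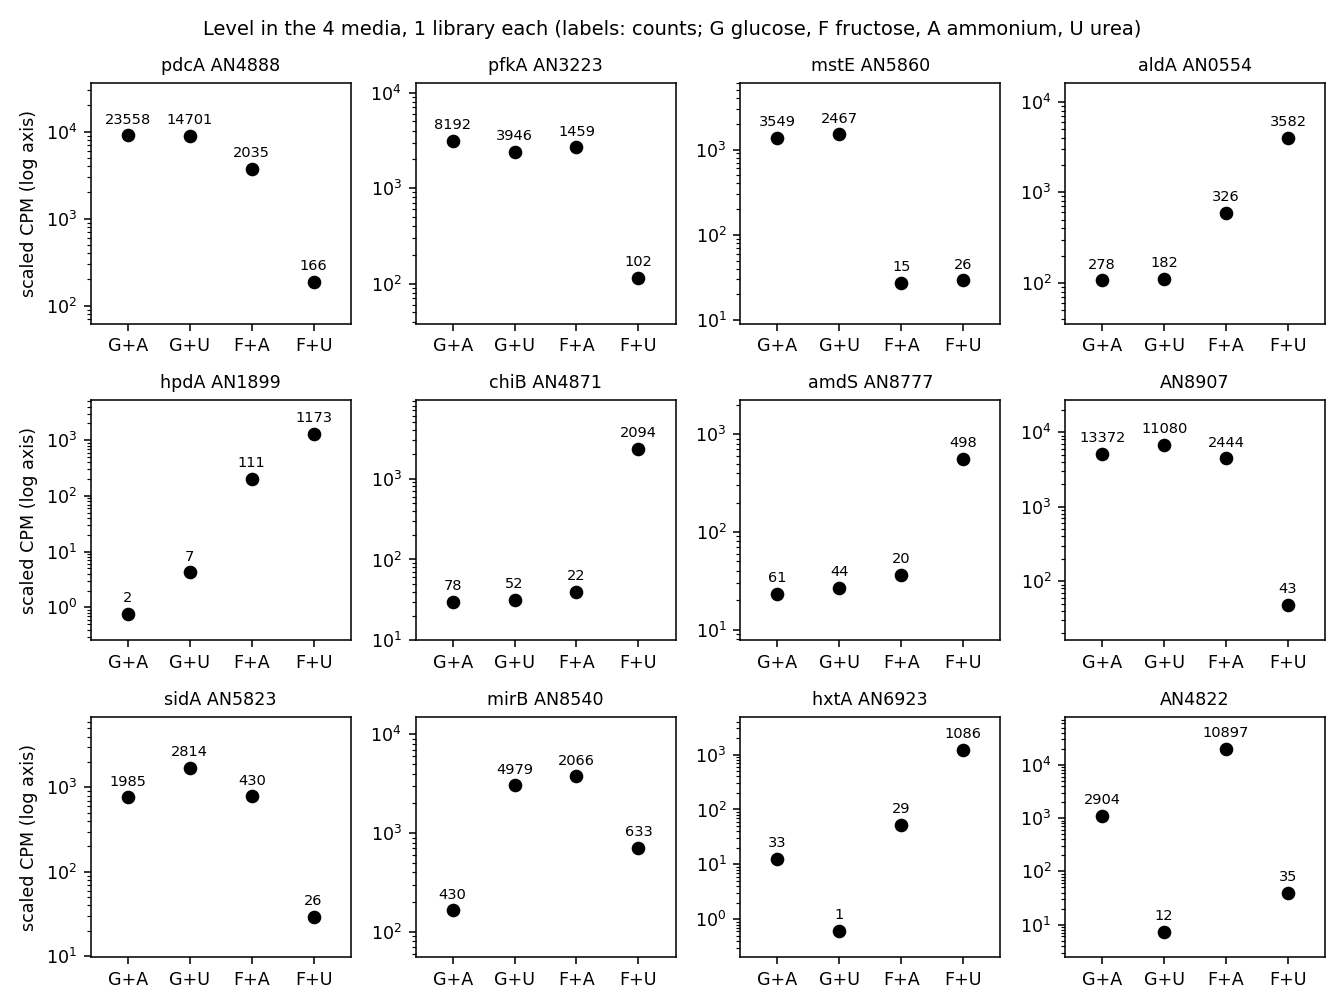
Scaled CPM on a log axis of 12 genes in the 4 media (G glucose, F fructose, A ammonium, U urea), 1 library per point, with the count printed above it. pdcA, pfkA, AN8907 and sidA are lowest in fructose with urea, chiB, amdS and hxtA are highest there, and mirB lies between its levels in the other media.

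Transcripts linked to autolysis and secreted proteolysis were higher. Of 8 genes, 6 were past 4-fold higher and 0 lower, around a median of 4.47. Their share of listed sense counts was 0.0287%, 0.0273%, 0.0899% and 0.646% in the 4 libraries. The class V chitinase gene chiB (AN4871), active in the autolysis of old mycelium, had 78, 52, 22 and 2094 counts, 6.27 (5.97 to 6.64). The glucanase gene engA had 224, 102, 105 and 1605 counts, 4.38 (4.19 to 4.60), and the extracellular serine protease gene prtA 82, 42, 194 and 776, 4.76 (4.46 to 5.14). The metalloproteinase gene pepJ had 0, 0, 10 and 68 counts, at least 66.3-fold higher, and xprG, for an activator of protease genes under starvation, had 13, 27, 14 and 116, 4.55 (3.87 to 5.66). In scaled CPM chiB was level across the other 3 media, while engA, xprG and prtA were already higher in fructose with ammonium than in either glucose medium. The autolysis genes were thus highest in the library in which ribosomal and glycolytic transcripts were lowest, and their part in those values was not tested.

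Other hydrolases included some of the highest ratios of all, with members past 4-fold in both directions. Of 74 glycoside hydrolase genes, 18 were past 4-fold higher and 11 lower, against 13.8% and 15.2% of all genes, around a median of 0.35. Their list held 0.565% of listed sense counts in glucose with ammonium and 1.86% in fructose with urea. For the peptidase list these shares were 1.15% and 2.77%. The arabinanase gene abnC (AN8007), for pectin breakdown, had 2, 0, 45 and 1711 counts, 10.49 (9.43 to 14.34), and the putative endoglucanase gene AN2388 4, 3, 137 and 640, 8.41 (7.51 to 10.75). The pectinesterase gene pmeA, also in the esterase list, had 162, 93, 17 and 0 counts, at least 18.5-fold lower. Of 98 peptidase genes, 18 were past 4-fold higher and 8 lower, led by the putative aminopeptidase gene AN8445 with 7, 5, 218 and 1853 counts, 9.32 (8.55 to 10.91). For cytochrome P450 genes the counts were 10 higher and 4 lower of 30. The highest, CYP548D1, had 26, 6, 166 and 2663 counts, 8.15 (7.67 to 8.84). phacB, a P450 gene for aromatic breakdown, had 25, 42, 6 and 223 counts, 4.62 (4.11 to 5.36). Of 18 genes for polyketide and nonribosomal peptide synthases, 7 were higher and 4 lower. AN8910 had 136 counts against 0, at least 133-fold higher, and micA, for microperfuranone, had 1 count against 198, -5.50 (-11.39 to -3.59). The small-molecule dehydrogenase list was mixed as well, with 9 higher and 6 lower of 24.

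Regulators of development included both sharp differences and small ones. For sexual development and velvet genes, 3 of 8 were past 4-fold higher and 0 lower, against 13.8% and 15.2% of all genes. The zinc cluster genes nosA, a regulator of sexual development, and rosA, described as a repressor of it, had 12, 24, 130 and 901 and 2, 0, 30 and 306 counts, with ratios of 7.61 (6.97 to 8.74) and 8.0 (6.94 to 11.86). laeA, for a regulator of secondary metabolism, had 22, 14, 23 and 94 counts, 3.56 (2.96 to 4.38), while velB stood at 0.39 (-0.38 to 1.14) and nsdD at -0.58 (-1.17 to -0.04). For conidiation 3 of 8 were higher and 0 lower, beside the same shares of all genes. The conidiophore phenol oxidase gene ivoB (AN0231) had 11, 4, 9 and 517 counts, 6.92 (6.25 to 8.11), and flbD, for an early activator of conidiation, 26, 50, 14 and 58, 2.64 (2.01 to 3.43).

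Of 12 oxidative defence genes, 2 were past 4-fold higher and 3 lower, counts near the 13.8% and 15.2% of all genes. cpeA (AN7388), for a catalase-peroxidase, had 3, 0, 155 and 1756 counts, 10.16 (9.19 to 13.02), and the catalase gene catA had 5, 9, 6 and 45, 4.36 (3.39 to 6.41). The thioredoxin-dependent peroxidase gene prxA had 757, 535, 96 and 6 counts, -5.32 (-6.88 to -4.30), the glutathione peroxidase gene gpxA stood at -2.48 (-2.93 to -2.09) and the catalase gene catB at -2.35 (-3.29 to -1.62). Lists of cell maintenance kept closer to 0, with medians of 0.03 over 112 histone and chromatin genes, -0.08 over 117 replication and cell cycle genes, 0.21 over 161 autophagy and vacuole genes and 0.41 over 61 kinase genes. In these 4 lists 4, 3, 13 and 5 genes were past 4-fold higher, and 5, 10, 13 and 3 lower. The signs of the first 2 medians are smaller than the shift between scalings. Of 6 zinc cluster factor genes named as such, the 2 past 4-fold were alcR and rosA.

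Beyond the lists, the 15 highest and 15 lowest genes by counting interval held several of no assigned role. AN8781, described only through orthologues, had 17, 24, 1382 and 3752 counts, 9.21 (8.65 to 10.11). The oxidoreductase-domain gene AN12088 had 12, 10, 418 and 4219 counts, 9.84 (9.20 to 10.96), and the putative 2,3-dihydroxybenzoate carboxylyase gene dhbD (AN6723) had 1, 5, 10 and 1157, 10.41 (9.24 to 17.03). AN4008, with a methyltransferase domain, had 0, 14, 52 and 561 counts, at least 547-fold higher. AN1553, with a domain linked to fruiting bodies and haemolysis, had 0, 2, 85 and 451 counts, at least 439-fold higher, and AN3557 had 0, 1, 67 and 293, at least 286-fold higher. AN12477, with a GTPase domain, stood at 9.6 (8.43 to 16.22), the predicted cell surface gene AN4702 at 9.26 (8.09 to 15.88), AN8351 at 9.09 (7.92 to 15.72) and the monooxygenase gene AN5421 at 8.93 (7.76 to 15.55). At the low end AN5719 had 432, 246, 63 and 0 counts, at least 49.3-fold lower. AN4127 had 862, 744, 314 and 1 counts, -7.61 (-13.51 to -5.72), and the predicted surface protein gene AN3310 889, 327, 18 and 1, -7.66 (-13.55 to -5.77). AN10296, whose orthologues are fumarate reductases used without oxygen, had 2670, 1665, 767 and 15 counts, -5.88 (-6.77 to -5.20). AN4051, with a haem and oxygen binding domain, had 3935, 1795, 485 and 29 counts, -5.51 (-6.12 to -5.01), and AN11006 had 2642, 1153, 627 and 13, -6.06 (-7.03 to -5.34). In the list matched by low oxygen, added afterwards, 6 of 21 genes were past 4-fold lower and 2 higher, against 15.2% and 13.8% of all genes. AN11006 is not in that list, whose lowest value is -5.88. The tartrate dehydrogenase gene AN4822 had 2904, 12, 10897 and 35 counts, -4.81 (-5.35 to -4.35). It was high in both media that held tartrate.

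AN5245 and AN11787, which have no description, held 3.14% (95% Clopper-Pearson 3.10% to 3.18%) and 2.81% (2.78% to 2.85%) of the listed sense counts in fructose with urea. They were followed there by AN1236, AN11489 and AN1378. In glucose with ammonium AN8746, a possible pseudogene, led with 1.23% (1.22% to 1.25%), followed by AN5245, pdcA, AN8705 and AN1345. AN8746 had 32135, 13183, 2204 and 446 counts, -4.62 (-4.76 to -4.49), and AN5245 had 31178, 56277, 16634 and 25530, 1.26 (1.24 to 1.28). AN5245 had more antisense than sense counts, 39066 in glucose with ammonium and 43155 in fructose with urea. The same held for AN11489, with 18695 and 14104 antisense against 15501 and 11189 sense counts.

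The next question was which of these differences exceeded either single change of source. A gene was counted if it was past 4-fold and its level in fructose with urea also lay at least 2-fold beyond glucose with urea and beyond fructose with ammonium in the same direction. Among 6656 genes with a count in all 4 libraries, 578 (8.68%) met this on the higher side and 854 (12.8%) on the lower side. They made up 62.9% of the 919 higher genes and 84.3% of the 1013 lower genes. These 2 shares are not comparable. Genes low in every library but fructose with urea have no glucose with ammonium count, so the higher numbers leave them out. Of 574 such genes, described below, 111 would be past 4-fold higher, against 0 of 62 genes in reverse. With every margin and the 4-fold limit taken at the near end of its counting interval, 337 higher and 454 lower genes remained. For the same 6656 genes, glucose with urea over glucose with ammonium had 113 genes (1.7%) past 4-fold higher and 81 (1.22%) lower. For fructose with ammonium over glucose with ammonium these were 602 (9.04%) and 423 (6.36%). All 3 comparisons share the glucose with ammonium library, so their ratios are set side by side without a measure of likeness.

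On the lower side the 10 genes lowest beyond both single changes included enzymes described above. Fructose with urea over glucose with urea and over fructose with ammonium gave -7.11 (-7.60 to -6.70) and -6.49 (-7.00 to -6.10) for AN8907, and -6.80 (-8.91 to -5.67) and -5.50 (-7.78 to -4.49) for AN1883. For sdeB these values were -6.27 (-7.21 to -5.59) and -5.56 (-6.56 to -4.92), and for AN5130 -4.87 (-5.31 to -4.50) and -5.17 (-5.63 to -4.81). AN9297 had 2306, 1113, 2255 and 16 counts, with -5.18 (-6.05 to -4.54) and -7.73 (-8.65 to -7.14), and was high in fructose with ammonium. The rule of selection places fructose with urea lowest in each of these genes, so that position is no separate result. AN5719, AN7211, AN4127, AN11006 and AN10296 were the others of the 10.

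On the higher side chiB stood at 6.18 (5.81 to 6.64) over glucose with urea and 5.82 (5.27 to 6.55) over fructose with ammonium. The kynureninase gene AN1857 had 5.38 (4.93 to 5.97) and 5.65 (4.83 to 6.90), and dhbD 8.4 (7.51 to 10.36) and 6.05 (5.27 to 7.22). The putative acid phosphatase gene AN4055 had 62, 43, 44 and 2130 counts, 6.47 (6.07 to 6.98) and 4.87 (4.47 to 5.36). AN1433 had 34, 11, 28 and 1456 counts, 7.77 (7.08 to 8.93) and 4.96 (4.46 to 5.59), and AN8661 had 30, 7, 1 and 172, 5.26 (4.42 to 6.83) and 5.92 (4.23 to 12.04). AN1772, AN8046, ivoB and fahA were the others of the 10. The same rule places fructose with urea highest in all of these genes.

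**Figure D4:**
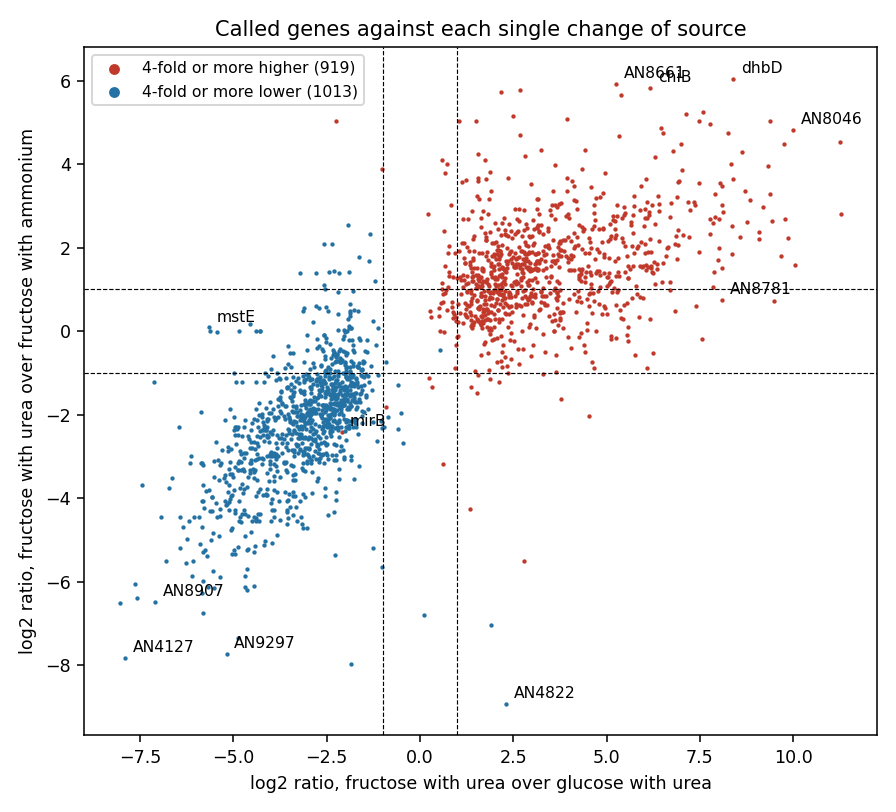
Log2 ratio of fructose with urea over fructose with ammonium (vertical) against fructose with urea over glucose with urea (horizontal) for the genes past 4-fold against glucose with ammonium. Dashed lines mark the 2-fold margin. The 578 higher genes beyond both single changes fill the upper right corner and the 854 lower genes the lower left, and the remaining genes lie outside both corners.

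Several lists, but not all, showed the same at the level of groups. Glycolysis and fermentation had a median of 0.03 when the nitrogen source alone changed, -0.33 when the carbon source alone changed and -2.92 when both did. On the lower side 9 of its 12 genes lay beyond both single changes. For cytosolic ribosomal proteins the medians were -0.05, -1.77 and -4.19, with 29 of 34 genes beyond both. tRNA synthetases had -0.03, -0.75 and -2.34, and sterol synthesis 0.28, -0.22 and -1.28, with 12 and 18 genes beyond both. Among higher groups, autolysis genes had -0.15, 1.68 and 4.47, with 6 of 8 beyond both. Ethanol and acetate genes had 0.02, 1.23 and 2.67, with 6 of 10. Phenylalanine and tyrosine breakdown had 0.64, 6.65 and 8.36, with 4 of 4 genes beyond both. Gluconeogenesis had 0.12, 2.25 and 2.69, with 1 of 7 genes beyond both. The siderophore and iron list did not, with 1.17 and 1.55 for the single changes and 0.55 for both. The hexose transporter list had medians of -0.86, 2.01 and 6.52, over 3 genes that include mstE at -5.52.

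**Figure D5:**
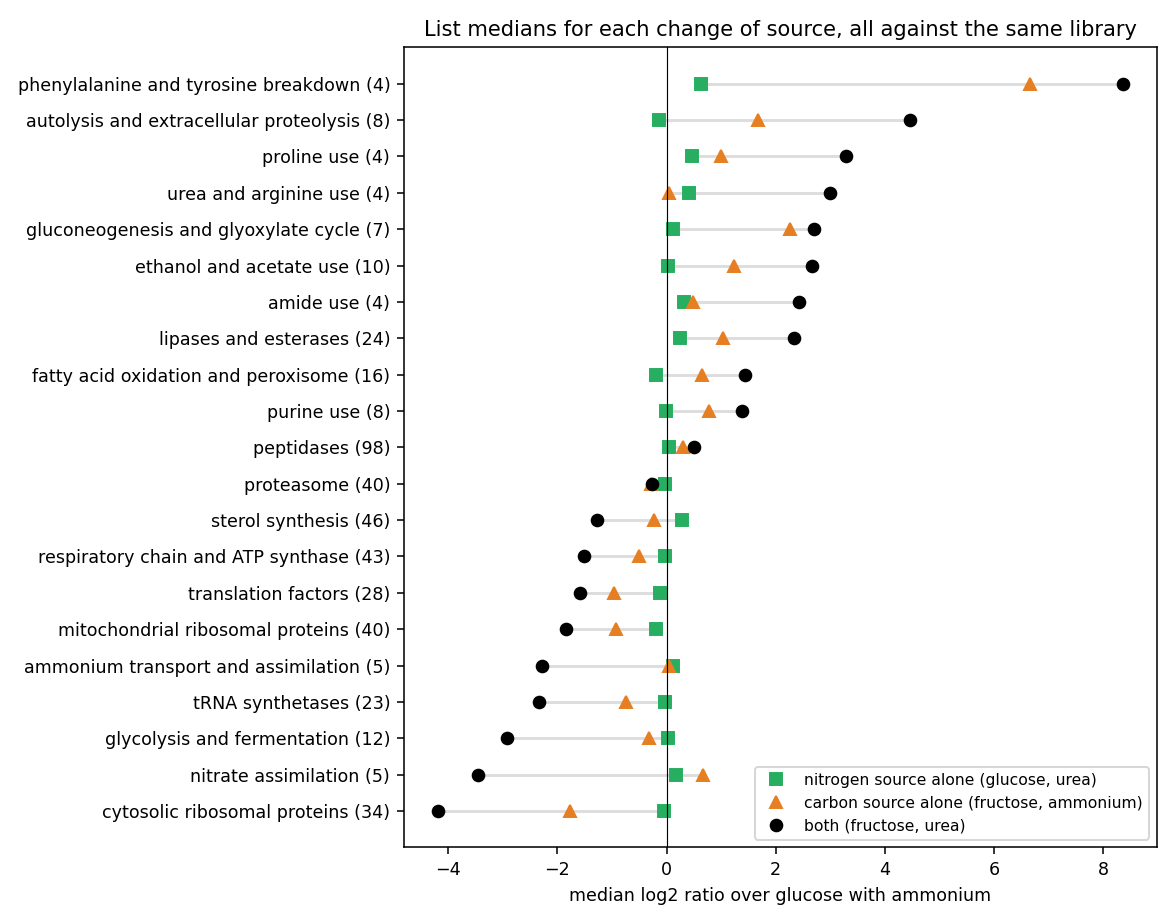
Median log2 ratio over glucose with ammonium of 21 gene lists when the nitrogen source alone (squares), the carbon source alone (triangles) or both (circles) changed, with the number of genes with a count in all 4 libraries in parentheses. The medians for both changes reach -4.19 for cytosolic ribosomal proteins and 8.36 for phenylalanine and tyrosine breakdown, while those for nitrogen alone stay between -0.20 and 0.64 in these 21 lists. Lists not drawn went further, such as siderophore and iron at 1.17, hexose transport at -0.86 and tartrate dehydrogenases at -7.16, the last on 1 gene.

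A further 574 genes had a count in fructose with urea but none in glucose with ammonium and could not enter the ratio. The deposited tables list a gene only where its higher library of the 2 reaches about 10.4 CPM, so a gene kept out for this reason had at most 26 counts in glucose with ammonium. Read that way, 111 of the 574 genes would be past 4-fold and 16 past 16-fold. The highest was the putative glutaminase gene gtaA (AN4809), which frees ammonium from glutamine, with 687 counts in fructose with urea, 6 in glucose with urea and 4 in fructose with ammonium. Its ratio would be at least 77.2-fold. AN2653, with a monooxygenase domain, had 617 counts and 0 in both of those libraries, and the putative beta-glucosidase gene bglF had 412 against 2 and 2. The transporter-domain genes AN8084 and AN5742 had 353 and 325 counts. AN4807 had 285, the hydrolase-domain gene AN2779 267, the phospholipase-domain gene AN6382 252, AN0500 242 and AN9323 230. None of these genes exceeded 7 counts in the single-change libraries. Genes of this group are listed through their level in fructose with urea, and all 574 had at most 17 counts in glucose with urea and 5 in fructose with ammonium. From the lists, 25 of 110 glycoside hydrolase and 10 of 44 cytochrome P450 genes fell in this group, against 574 of all 7752 genes. Of the 25 and the 10, only 7 and 4 would be past 4-fold. brlA, the central activator of conidiation, also fell here with 16 counts, but its bound of 1.80-fold does not reach 4-fold. In reverse, 62 genes had a count in glucose with ammonium and none in fructose with urea, the highest being AN12281 with 75 counts, AN6729 with 68, and AN3792 and maeB with 60 each. None of the 62 would be 4-fold lower if it held the 8 counts that an unlisted gene could have.

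Antisense counts followed the sense counts of the same genes. Over 6149 genes past the level minimum on both strands of these 2 libraries, the log2 ratios of the strands had a Pearson correlation of 0.83 and a Spearman correlation of 0.79. This is a description across genes of the same 2 libraries, and read leakage between strands was not tested. For the 750 of these genes that were past 4-fold higher on the sense strand, the median antisense ratio was 3.03, and for 964 lower genes -2.79, against -0.20 over all 6149. For pdcA the antisense counts were 29 in fructose with urea and 7522 in glucose with ammonium, a log2 ratio of -6.02 (-6.62 to -5.52). In all, 4 genes were past 4-fold in opposite directions on the 2 strands, named here after their values were seen. AN0128 had 4 sense counts against 82 and 59 antisense counts against 36, and AN3588 had 0 against 49 and 12 against 8. AN1799 had 56 sense counts against 22 and 2 antisense counts against 51, and AN10536 had 22 against 13 and 0 against 17. The antisense interval was 2.07 to 3.33 for AN0128 but reached inside 4-fold for the others. It ran from 1.15 to 4.06 for AN3588 and from -5.78 to -0.77 for AN1799, and ended at -0.06 for AN10536.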

How the data were processed

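Total RNA depleted of ribosomal RNA was made into strand-specific libraries and sequenced as paired ends on a HiSeq, per the labels' protocols. The deposited tables hold raw read counts per gene and strand for pairs of media. HTSeq and edgeR are named in the submitters' processing notes, with no version. For the aligner, genome build and annotation used by the authors, nothing is stated in the labels or headers. The authors' 16 normalised columns were not used. Gene names and descriptions are from the deposited tables, and the order of neighbouring genes is from RefSeq (assembly ASM1142v1).

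Counts of the same library were equal in every table that listed a gene. Libraries were scaled with TMM (edgeR 4.0.16, R 4.3.3) over genes with a count in all 4 libraries, giving factors of 1, 0.965, 1.00 and 1.10. A gene counted as different at an absolute log2 ratio of at least 2 and a mean log2 level of at least 3, computed from scaled CPM plus 0.5. Intervals are exact Clopper-Pearson from scipy 1.17.1. The calculation recovered known ratios in simulated counts. These were drawn with counting error only and with the library sizes then used for the ratio. The simulation therefore did not test the scaling, the unlisted genes or the spread between cultures. No test was run, and genes were named by their rank in counting interval, by list membership or, where stated, after their values were seen. The members and lists were chosen with earlier results of these data known. Other scalings (DESeq2 1.42.0, upper quartile, total counts), prior counts, level minimums and margins were tried.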

Additional observations from a re-analysis of the deposited data

Results flagged for a closer look

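In 6 genes the same change of source went in opposite directions depending on the other source, with 1 library per medium, so the difference was not tested. For the hexose transporter gene hxtA, urea over ammonium was -3.60 on the log2 scale in glucose and 4.49 in fructose. For the siderophore transporter gene mirA it was 3.06 in glucose and -4.45 in fructose, and for mirB 4.20 and -2.41. For mirB, fructose over glucose was 4.51 with ammonium and -2.10 with urea. Fructose over glucose was 2.09 with ammonium and -4.68 with urea for AN8374, and 2.22 and -5.18 for AN9297. For AN8661 the order was turned, with -2.31 with ammonium and 5.26 with urea. The -2.31 rests on 1 count in fructose with ammonium against 30 in glucose with ammonium. The -3.60 of hxtA likewise rests on 1 count in glucose with urea. AN8374 had 0 counts in fructose with urea, so the size of its -4.68 depends on the prior count.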

How the results depend on the processing

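No paired analysis was possible because each medium has 1 library, and for the same reason no replicate could be left out. Over all alternatives (scalings, prior count, level minimums, whole intervals, margins, genes with all 4 counts, unlisted genes entered at their highest possible count, mitochondrial genes left out), 33 counts of genes stayed within 1.5 times their value and 3 did not. The 3 were the lower genes with a whole interval past 4-fold, 604, and the genes beyond both single changes at a 4-fold margin, 229 higher and 504 lower. Higher and lower calls were 1026 and 943 with total-count scaling and 830 and 917 with a prior count of 5. Of the list medians 377 stayed within their spread, and the tartrate dehydrogenase median, which rests on 1 gene, went from -4.81 to -2.46 without the level minimum. Of the values of named genes under other scalings and a prior count of 5, 1958 stayed within their counting interval and 52 moved. No gene past 4-fold changed direction, but phkA, AN4003 and sodB, all near 0, changed sign with total-count scaling, as did the replication and cell cycle median. The same scaling takes creA, ureB, flbC, uapC, mirC, steA and AN1236 past 4-fold and pkiA, ndhA and fbx1 within it. Without the level minimum the medians of the amino acid transporter and chromatin lists, both near 0, changed sign. The cause was not tested. Low counts in the fructose libraries limit the lower genes most, since 1 count there stood for 1.82 and 1.12 scaled CPM.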
